A study of Setaria italica with 24 samples.

Results

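Foxtail millet (Setaria italica) roots of the cultivar TT8 were compared with roots of the landrace ISE36 (spelled ICE36 in the sample labels), both mock-treated, that is grown without the arbuscular mycorrhizal fungus (AMF) given to the other plants. TT8 is a Taiwan cultivar and each line stood for 1 genotype, so a line difference cannot be told apart from any other difference between these seed stocks. Seedlings of both lines grew in autoclaved sand and peat moss with liquid fertilizer, and roots were taken at 6 weeks. The comparison used 4 libraries of each line, 8 of the 24 libraries of the series, and the series also held mock roots of the landrace Hanevalval and roots of all lines treated with Claroideoglomus etunicatum. Members were the genes listed in the tables of both lines with a mean of at least 5 normalized reads over the 8 mock libraries. They numbered 24078 of 24336 genes in both tables. A further 982 genes were listed for TT8 alone and 1161 for ISE36 alone, and these were not compared. The mean was 5.003 for the gene just inside the limit and 4.999 for the gene just outside.

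Roots take up phosphate and nitrogen directly, and most land plants can also obtain them through AMF, which grow into root cortex cells and form branched arbuscules there. The host recognises the fungus through a common signalling pathway, feeds it with lipids, and takes up the delivered phosphate and ammonium through transporters of the membrane around the arbuscule. A mock root shows the starting state of each line for these genes, for nitrogen assimilation into glutamine and arginine, for aromatic amino acids that feed lignin, and for cell wall polysaccharides.

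Values are read counts divided by a size factor of each library, and 1 pseudocount was added before log2. A gene was called where the lines differed at least 2-fold and the limma p, adjusted after Benjamini and Hochberg over all tested genes, did not exceed 0.05. The 8 libraries held between 16543884 and 21760152 counted reads. Nothing in the sources says whether the 4 replicates were separate plants or pools, so the p-values measure only the spread between these libraries.

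Among the 8 mock libraries compared, 1 TT8 library stood apart and carried transcripts at odds with its mock label. The gene of PHT1;9 (SETIT_004288mg), the phosphate transporter of the arbuscule membrane, had values of 1.86, 0.976, 0.853 and 74.6 in TT8 replicates 1 to 4 and of 0.00, 3.31, 1.81 and 1.82 in ISE36. RAM2 (SETIT_035307mg), an acyltransferase of lipid supply to the fungus, had 0.931, 0.976, 0.00 and 19.0 in TT8 and was at 0 in every ISE36 library. A subtilisin inhibitor gene (SETIT_019796mg) was at 0 in TT8 replicates 1 to 3 and in all ISE36 libraries and at 106.6 in TT8 replicate 4. A germin-like gene (SETIT_032400mg) had 79.4 there against at most 0.828 in the other 7 mock libraries of these lines, and RAM1 (SETIT_027708mg), a GRAS transcription factor, had 4.74 there and 0 in those 7. Mock roots of Hanevalval, which entered no test here, held the same transcripts in replicates 3 and 4, with values of 97.0 and 29.1 for PHT1;9, 108.2 and 21.6 for SETIT_019796mg, 52.2 and 41.0 for SETIT_032400mg and 14.9 and 12.9 for RAM2, and RAM1 had 18.7 in replicate 3. These 5 genes, picked after their values were seen, summed to 284.3 in TT8 replicate 4. The sum was 0.853 to 2.79 in the other TT8 mock libraries and 0.00 to 4.14 in the ISE36 mock libraries. AMF-treated ISE36 roots reached 296.9 to 1593 and AMF-treated TT8 roots 9563 to 17015, so TT8 replicate 4 lay near the lowest AMF-treated ISE36 library and at 2.97% of the lowest AMF-treated TT8 library. Over the whole list of 16 colonization-related genes the summed values were 1935 to 3484 in TT8 mock (2901 in replicate 4) and 1328 to 1684 in ISE36 mock. AMF-treated ISE36 roots had 1262 to 3740, overlapping mock, and AMF-treated TT8 roots 20264 to 32003. Most of each mock sum came from the class III chitinase SETIT_021498mg, with 1539 to 3037 in TT8 mock and 1095 to 1493 in ISE36 mock. That gene had only 248.4 to 444.5 in AMF-treated ISE36, so the sum does not measure colonization. TT8 replicate 4 was the highest TT8 library for 12 of the 16 genes.

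**Figure D1:**
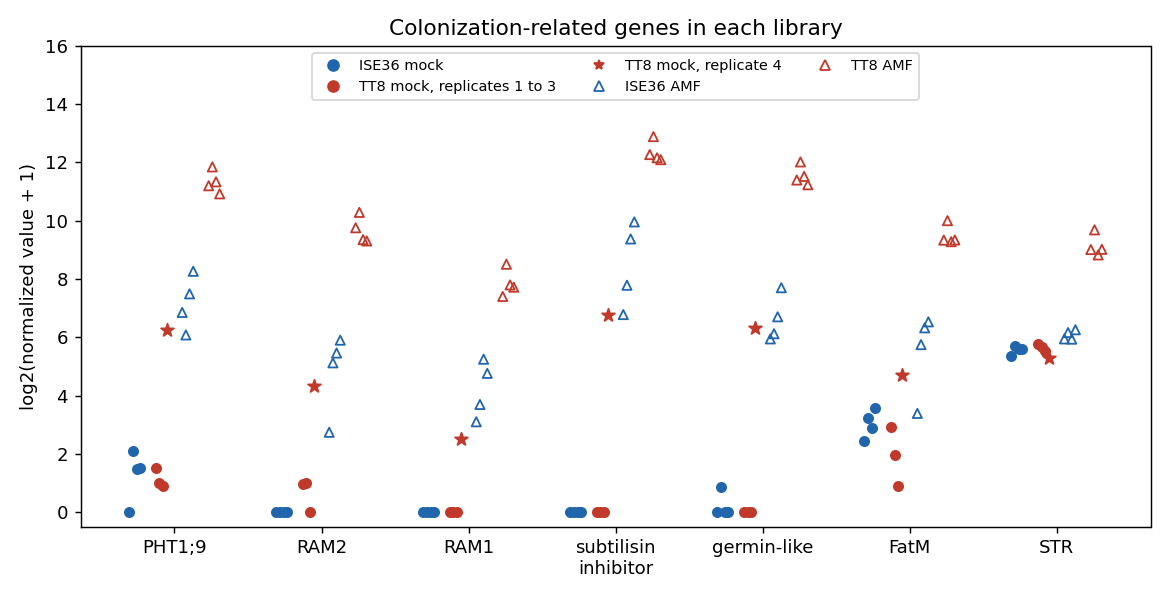
Value of 7 colonization-related genes in each library, as log2(normalized value + 1) on the vertical axis; filled symbols are mock roots, open triangles AMF-treated roots, and the star is TT8 mock replicate 4. For PHT1;9 the star stands at a value of 74.6, above the other 7 mock libraries at 0.00 to 3.31 and below the AMF-treated TT8 libraries.

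The same library also lay nearest to ISE36 across all genes. On the first principal component, with 65.2% of the variance, TT8 replicates 1 to 3 lay at 116.1, 98.3 and 82.4 and replicate 4 at 16.4. The ISE36 libraries lay at -40.4, -80.3, -93.6 and -98.8. TT8 replicate 4 correlated on average at 0.937 with the other TT8 libraries and at 0.932 with the ISE36 libraries, while the other 3 TT8 libraries had 0.952 to 0.964 with their own line and 0.867 to 0.900 with ISE36. ISE36 replicate 1 was the ISE36 library closest to TT8. The counts of calls, the list counts and the differences of single genes were therefore also computed without TT8 replicate 4, and whether that plant or RNA had met the fungus was not tested.

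**Figure D2:**
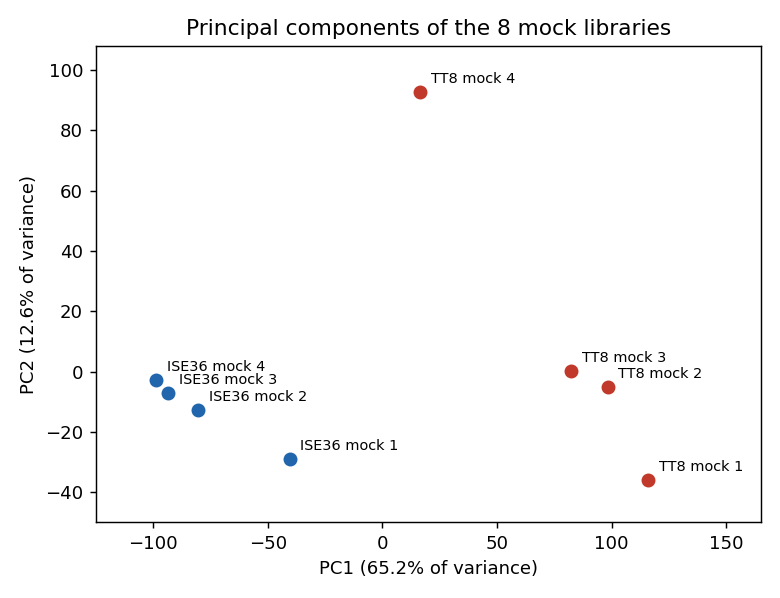
First and second principal components of the 8 mock libraries from log2(normalized value + 1) of the 24078 genes, with 1 point per library. TT8 replicates 1 to 3 lie at the right, ISE36 at the left, and TT8 replicate 4 at 16.4 on the first component and 92.7 on the second.

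The lines differed in a large part of the root transcriptome. Of 24078 genes 1600 were called higher in TT8 (6.65%) and 2438 higher in ISE36 (10.1%), together 16.8%. In bulk roots fewer cells of a type and less RNA per cell cannot be told apart. Among the called genes 88.0% differed between 2- and 8-fold, 12.0% more than 8-fold and 1.63% more than 32-fold, and the median absolute log2 difference was 1.67 against 0.43 over all genes. The median log2 difference of all genes was -0.00, and it moved to 0.11 when libraries were scaled to equal totals. For 11583 genes (48.1%) the 95% interval of the difference lay within 2-fold in both directions.

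**Figure D3:**
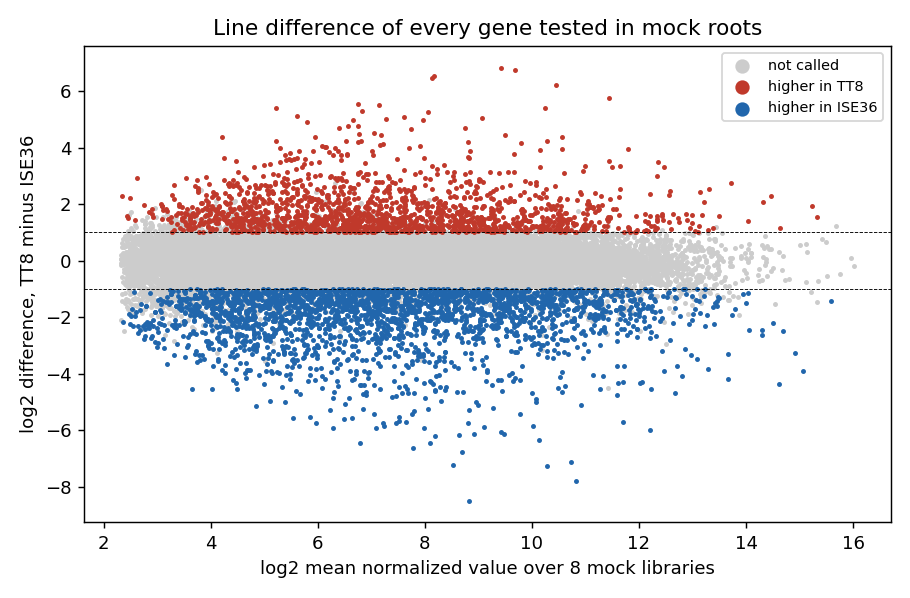
Log2 difference between the lines (TT8 minus ISE36, vertical axis) against the log2 mean normalized value over 8 mock libraries, with 1 point per gene and dashed lines at a 2-fold difference. Red points are the 1600 genes called higher in TT8 and blue points the 2438 called higher in ISE36.

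Without TT8 replicate 4 the calls were 2077 genes higher in TT8 (8.63%) and 3415 higher in ISE36 (14.2%), together 22.8%, and 3901 of the 4038 calls made with all libraries were made again in the same direction. Among genes called higher in ISE36, TT8 replicate 4 was the highest TT8 library for 64.0%, against 32.9% of all tested genes. ISE36 replicate 1 was the lowest ISE36 library for 69.9% of them, against 38.2% of all tested genes. Among genes called higher in TT8, TT8 replicate 4 was the lowest TT8 library for 59.0%, against 35.1% of all tested genes. Leaving out ISE36 replicate 3 brought the genes higher in ISE36 to 1623. The lines did not overlap at all for 3317 genes higher in TT8 (13.8%) and 3145 higher in ISE36 (13.1%), together 26.8%, and without TT8 replicate 4 for 5266 (21.9%) and 5673 (23.6%), together 45.4%. Leaving out any library can only keep or raise this count. No other library was left out of it, so the rise cannot be credited to replicate 4.

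The called share of genes lay between 14.0% and 20.8% at every level of expression. It was 17.9% for genes with a mean value of 5 to 50, 17.8% from 50 to 500, 14.0% from 500 to 5000 and 20.8% above that. The 3 most abundant genes called higher in ISE36 had ISE36 means of 50651 to 68747, and for each of them TT8 replicate 4 (31375 to 61753) stood above TT8 replicates 1 to 3 (930.2 to 23216). The 3 most abundant called higher in TT8 had means of 35334 to 60264 in TT8 and 15583 to 21906 in ISE36. Among genes in both tables, none with a mean of at least 100 in one line was at 3 reads or fewer in every library of the other. That count could not cover genes listed for 1 line alone. Of those, 69 of 982 for TT8 and 60 of 1161 for ISE36 had a mean of at least 100 in their line. Noncoding RNA genes were called at about the share of all genes, with 7 higher in TT8 and 7 higher in ISE36 of 97 tested.

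The largest differences among genes without overlap and with a mean of at least 100 belonged to IDs that carry no product name here. SETIT_0340051mg had values of 1493, 1323, 1211 and 1411 in TT8 and 7.98, 15.7, 8.14 and 13.7 in ISE36, a log2 difference of 6.83 ± 0.23 (SE, limma adjusted p = 9.33e-07). SETIT_027833mg had 1581, 2703, 1353 and 902.8 in TT8 and 7.45 to 21.3 in ISE36, a log2 difference of 6.74. In both, TT8 replicate 4 was with its own line, and Hanevalval mock roots had 868.7 to 1432 and 246.2 to 1134, nearer to TT8.

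Higher in ISE36 were SETIT_015759mg and SETIT_025862mg. SETIT_015759mg had 0.00, 0.976, 0.00 and 13.03 in TT8 and 414.2, 802.4, 1186 and 1195 in ISE36 (log2 difference -8.50 ± 0.80 SE, limma adjusted p = 0.000196). SETIT_025862mg had 18.6, 21.5, 5.12 and 19.0 in TT8 and 2013, 3528, 3961 and 4892 in ISE36 (log2 difference -7.81). The lines were separated at every replicate, and for the first of these TT8 replicate 4 was again the highest TT8 library. Hanevalval mock replicates 1 to 4 had 0.00, 1.90, 41.0 and 154.2 for SETIT_015759mg, below every ISE36 library. For SETIT_025862mg they had 652.1, 829.7, 2387 and 2049, with replicates 3 and 4 inside the ISE36 range. Replicates 3 and 4 were the Hanevalval mock libraries that held transcripts of PHT1;9 and RAM2.

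Genes of glutamine and arginine metabolism, where called, were higher in ISE36. This list of 21 genes and the aromatic, PAL and cell wall lists were drawn up in the study after seeing the AMF response of these same libraries, so they are not independent evidence of a direction. Of 20 tested, 9 were called higher in ISE36 and 0 higher in TT8, where 10.1% and 6.65% of all genes were called. The median log2 difference was -1.18, against -0.00 over all genes, and 18 of 20 genes had a lower estimate in TT8. At an unadjusted p under 0.05 limma had 1 gene higher in TT8 and 14 higher in ISE36, edgeR called 0 and 7, and DESeq2 1 and 9. Of all 24078 genes, 4894 were higher in TT8 and 5163 higher in ISE36 at that unadjusted limma p. Without TT8 replicate 4 the count was 15 of 20 and the median -1.33, and it was 5, 4 and 5 when TT8 replicate 2, ISE36 replicate 3 or ISE36 replicate 4 was left out. TT8 replicate 4 was the highest TT8 library for 16 of the 20 genes and ISE36 replicate 1 the lowest ISE36 library for 18, so that these 2 libraries lay closest to each other.

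Glutamine synthetase joins ammonium to glutamate and is the entry point of ammonium into amino acids. The synthetase gene SETIT_036352mg had 438.6, 533.7, 519.4 and 555.6 in TT8 and 666.9, 1202, 2034 and 1632 in ISE36, and the lines did not overlap (2.503-fold higher in ISE36, limma adjusted p = 0.0130). Hanevalval mock replicates 1 to 4 had 621.3, 463.2, 6924 and 8752, a wider spread within 1 line than between TT8 and ISE36. The other 2 synthetase genes also had higher estimates in ISE36 without being called. SETIT_022118mg had 505.6, 674.2, 488.7 and 2305 in TT8 against 873.6 to 2879 in ISE36, a log2 difference of -1.28 (limma adjusted p = 0.106), and was called at -1.79 without TT8 replicate 4. The abundant gene SETIT_017628mg had 6337 to 11689 in TT8 and 9733 to 22695 in ISE36, with overlapping lines (log2 difference -0.92), and NADH glutamate synthase, which closes the cycle by returning glutamate, had a log2 difference of -0.56 that was not called.

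Arginine is made from glutamate through acetylated intermediates, and 5 of the 9 genes of this route were called higher in ISE36. A gene for N-acetylglutamate synthase (SETIT_017738mg), the first step, had 34.5, 54.6, 79.3 and 426.5 in TT8 and 337.9, 481.9, 692.6 and 599.8 in ISE36. TT8 replicate 4 alone reached the ISE36 range, and the log2 difference was -2.49 with all libraries and -3.24 without it. A more abundant amino acid acetyltransferase gene of the route (SETIT_034795mg) had 334.3 to 1676 in TT8 and 1013 to 1801 in ISE36, with overlapping lines. It was not called (log2 difference -0.90, limma adjusted p = 0.144), but was called at -1.30 without TT8 replicate 4. Glutamate N-acetyltransferase (SETIT_035137mg), which recycles the acetyl group, had 271.0 to 363.3 in TT8 and 480.7 to 994.6 in ISE36 without overlap (log2 difference -1.20 ± 0.22 SE, limma adjusted p = 0.00536). Acetylornithine transaminase (log2 difference -1.26), the small chain of carbamoyl phosphate synthase (-1.17) and the argininosuccinate lyase SETIT_021759mg (-1.38) were called too, each with TT8 replicate 4 inside the ISE36 range. Argininosuccinate synthase (-0.91) passed the adjusted p but not the 2-fold limit, and the second lyase, SETIT_035209mg, had -0.24. The calls of N-acetylglutamate synthase and of the first lyase were lost when any one of TT8 replicates 1 to 3 or ISE36 replicates 2 to 4 was left out, that of carbamoyl phosphate synthase without TT8 replicate 2 or ISE36 replicate 3 or 4, and that of acetylornithine transaminase without ISE36 replicate 3.

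Glutamine also gives its amide group to nucleotides. UTP-ammonia ligase, the enzyme that makes CTP from UTP, was called higher in ISE36 for both of its genes. SETIT_021485mg had 487.9, 479.1, 461.4 and 983.3 in TT8 and 1041, 2280, 2727 and 3206 in ISE36 (log2 difference -1.90 ± 0.37 SE, limma adjusted p = 0.00681), and SETIT_000703mg had a log2 difference of -1.38, a call lost when any one of TT8 replicates 1 to 3 or ISE36 replicates 2 to 4 was left out. In the first gene the highest TT8 library, replicate 4, fell just short of the lowest ISE36 library, replicate 1. Hanevalval mock replicates 1 to 4 had 669.2, 610.4, 2645 and 3375 for that gene, spread over the values of both lines. A GMP synthase-related gene (SETIT_019548mg) went the other way, with 79.1 to 280.8 in TT8 and 65.5 to 124.2 in ISE36. Its log2 difference was 0.98 (limma adjusted p = 0.0884) and it was not called. A pyridoxal-5-phosphate decarboxylase gene (SETIT_036070mg) had 1077, 1697, 1850 and 3955 in TT8 and 4048 to 6947 in ISE36 (log2 difference -1.56). Ornithine aminotransferase, which leads arginine carbon towards proline, had 1107 to 1307 in TT8 and 1079 to 1207 in ISE36 (log2 difference 0.02, 95% interval -0.22 to 0.26, not called). Proline oxidase ranged from 669.5 to 11909 within TT8, where replicate 4 was highest, and was not called.

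**Figure D4:**
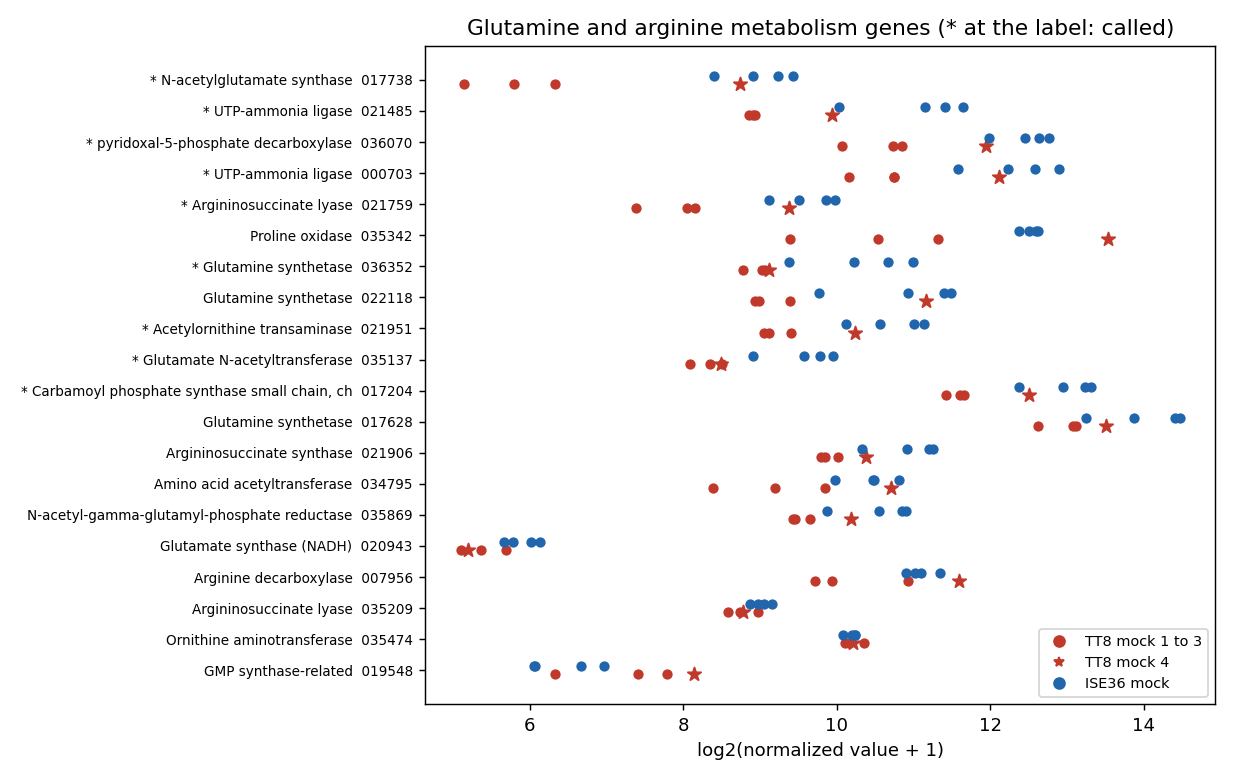
Value of each of the 20 tested glutamine and arginine metabolism genes in every mock library, as log2(normalized value + 1) on the horizontal axis, ordered by line difference, with the star for TT8 replicate 4. For 9 genes, marked at the label, ISE36 was called higher, and in most rows the star lies towards the ISE36 points.

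Aromatic amino acid genes differed little between the lines. Of 15 tested, 1 was called higher in ISE36 and 0 higher in TT8, a share of 6.67% against 16.8% of all genes, with a median log2 difference of -0.38 and 12 of 15 estimates lower in TT8. At an unadjusted limma p under 0.05 there were 1 gene higher in TT8 and 6 higher in ISE36, beside 4894 and 5163 of all 24078 genes. Both edgeR and DESeq2 gave the same counts of calls as limma. The called gene was phosphoribosylanthranilate isomerase (SETIT_018043mg), an enzyme of tryptophan synthesis, with 54.0, 78.1, 65.7 and 92.4 in TT8 and 80.7, 173.9, 259.5 and 284.9 in ISE36 (log2 difference -1.32). Its lines overlapped through ISE36 replicate 1. The call was lost when any one of 6 libraries was left out, all but TT8 replicate 4 and ISE36 replicate 1. Without TT8 replicate 4 the list had 3 calls, all higher in ISE36. In the chorismate route that precedes it, 0 of 9 genes were called by limma, edgeR or DESeq2 (5 at an unadjusted limma p under 0.05), and the widest log2 differences were -0.84 for 3-phosphoshikimate 1-carboxyvinyltransferase and 0.52 for 3-deoxy-7-phosphoheptulonate synthase, the first step.

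Phenylalanine ammonia-lyase (PAL) diverts phenylalanine into phenylpropanoids and lignin, and its 6 genes did not move as one. The most abundant gene called, SETIT_009509mg, had 16099, 15037, 7073 and 11274 in TT8 and 4019, 4280, 3374 and 3957 in ISE36, 3.03-fold higher in TT8 (log2 difference 1.60 ± 0.26 SE, limma adjusted p = 0.00288). SETIT_016478mg had 1521, 2512, 2047 and 1180 in TT8 and 360.1, 383.4, 589.5 and 639.8 in ISE36, 3.64-fold higher in TT8 (limma adjusted p = 0.00189). Neither overlapped, and without TT8 replicate 4 the log2 differences were 1.62 and 2.05. The gene SETIT_009345mg went the other way, with 478.4 to 1211 in TT8 and 1015 to 2308 in ISE36 (log2 difference -1.10, limma adjusted p = 0.0368), a call that was lost when libraries were scaled to equal totals (-0.98) and when any one of 6 libraries was left out. The remaining 3 PAL genes, including the most abundant, SETIT_013348mg (14156 to 37588 in TT8 and 12783 to 15888 in ISE36), were not called. PAL genes form a multigene family, and reads shared between members, if any, could have been split in counting.

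Among 54 symbiosis-conserved genes, which the study took as orthologs of a published set, 40 could be tested, 10 were in both tables under the mean of 5, and 4 were not in both tables. Of the 40, 7 were called higher in TT8 and 6 higher in ISE36, against 6.65% and 10.1% of all genes, and the median log2 difference was 0.32 with all libraries and 0.04 without TT8 replicate 4. Without that library 7 were higher in TT8 and 8 higher in ISE36.

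Of 5 signalling genes tested, 1 was called, near the 16.8% of all genes. DMI2 (SETIT_029334mg), the receptor-like kinase of the common pathway, had 765.4 to 988.1 in TT8 and 609.4 to 728.8 in ISE36, without overlap but 1.33-fold apart and so not called. DMI3 (SETIT_021787mg), the calcium- and calmodulin-dependent kinase that reads the calcium signal, had 336.1, 776.7, 800.0 and 1430 in TT8 and 604.9 to 943.8 in ISE36 (log2 difference -0.17). CYCLOPS (SETIT_008637mg), its transcription partner, was under the mean of 5, with 0.931 to 5.12 in TT8 and 3.31 to 9.04 in ISE36. The cation channel gene (SETIT_034161mg, Caster in the study's list) had a log2 difference of 0.10. A gene annotated as Nod-factor receptor 5 (SETIT_038965mg), of the LysM receptor type, was called higher in TT8, with 130.4, 120.0, 75.9 and 45.02 there and 23.9 to 32.8 in ISE36 (log2 difference 1.62).

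The genes that let the fungus in differed in opposite directions. VAPYRIN (SETIT_035002mg), needed for arbuscule formation, had 125.7, 153.2, 78.5 and 133.9 in TT8 and 41.7, 66.2, 56.1 and 62.8 in ISE36 (log2 difference 1.08 ± 0.25 SE, limma adjusted p = 0.0131). Its call was lost by size with a pseudocount of 8 (log2 difference 1.00) and without TT8 replicate 2 (0.96) or ISE36 replicate 1 (0.94). The gene annotated Exo71I (SETIT_015320mg) had 10.2, 8.78, 18.8 and 21.3 in TT8 and 41.7, 53.0, 34.4 and 51.0 in ISE36 (log2 difference -1.61). Both were without overlap.

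Among transcription factors, RAD1 (SETIT_000959mg), a GRAS protein of arbuscule development, had 149.0, 216.6, 208.1 and 1285 in TT8 and 335.2, 308.0, 282.1 and 356.8 in ISE36. Its log2 difference was -0.07 with all libraries and -0.76 without TT8 replicate 4 (limma adjusted p = 0.00802), under the 2-fold limit. CBF1 (SETIT_023636mg), a CCAAT-binding factor, had 41.0, 79.0, 103.2 and 161.1 in TT8 and 172.2 to 217.3 in ISE36 (log2 difference -1.18, limma adjusted p = 0.0371). That call was lost when any one library but TT8 replicate 4 was left out. The 3 lipid supply genes tested gave 0 calls by limma, edgeR and DESeq2 and 0 at an unadjusted limma p under 0.05. STR (SETIT_015555mg), an ABC transporter subunit of the arbuscule membrane, had 37.9 to 53.1 in TT8 and 39.9 to 51.3 in ISE36 (log2 difference -0.00, 95% interval -0.44 to 0.43). Its partner STR2 (SETIT_003786mg) had 7.81 to 12.1 and 4.14 to 9.95, and FatM (SETIT_003998mg), the thioesterase that releases the fatty acid, had 6.52, 2.93, 0.853 and 24.9 in TT8 and 4.43 to 10.9 in ISE36.

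Transporters held the largest symbiosis-gene difference towards TT8. The ABC transporter gene ABCB2 (SETIT_015752mg) had 65.2, 111.2, 56.3 and 62.8 in TT8 and 0.887, 3.31, 8.14 and 4.55 in ISE36 (log2 difference 4.001 ± 0.47 SE, limma adjusted p = 0.000628). The ammonium transporter AMT3;1 (SETIT_004697mg), known from other grasses in colonized roots, had 285.9, 333.7, 154.4 and 425.3 in TT8 and 64.7, 58.8, 88.6 and 82.8 in ISE36, 3.83-fold higher in TT8 (limma adjusted p = 0.00240). The lines did not overlap, and the log2 difference was 1.74 without TT8 replicate 4. AMT2;1 (SETIT_024947mg), a second ammonium transporter, was not called, with 552.6 to 684.8 in TT8 and 433.7 to 991.9 in ISE36 (log2 difference -0.23). The nitrate transporter gene SETIT_004857mg had 7.45, 9.76, 17.1 and 42.7 in TT8 and 9.94 to 24.8 in ISE36 (log2 difference -0.15), and an oligopeptide transporter (SETIT_026160mg) fell just short of 2-fold at 1.00 with all libraries and was called at 1.18 without TT8 replicate 4.

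The largest difference towards ISE36 in the list belonged to a heparan-alpha-glucosaminide N-acetyltransferase gene (SETIT_028233mg). It had 11.2, 4.88, 4.26 and 17.8 in TT8 and 238.6, 212.0, 234.2 and 228.4 in ISE36, 24.98-fold higher in ISE36 (log2 difference -4.64 ± 0.39 SE, limma adjusted p = 0.000101). Hanevalval mock roots lay between the lines, at 77.7 to 93.5. A pair of plastocyanin-like genes was also higher in ISE36. SETIT_020176mg had 197.4, 178.6, 190.2 and 305.7 in TT8 and 653.6, 1127, 2013 and 2106 in ISE36 (log2 difference -2.64), and SETIT_038020mg had a log2 difference of -2.49. Another plastocyanin-like gene, SETIT_007296mg, was higher in TT8 (log2 difference 1.65, lost without TT8 replicate 2 or ISE36 replicate 2, 3 or 4), so these 3 genes were split between the lines. The class III chitinase SETIT_002402mg had 2.79, 4.88, 10.2 and 15.4 in TT8 and 20.4, 47.2, 52.4 and 46.4 in ISE36 (log2 difference -2.33), and the other 3 chitinase genes of the list were not called. Late embryogenesis abundant (LEA) genes, known from drying seeds and stressed tissue, had 2 of 3 tested genes higher in TT8, where 6.65% of all genes were called. SETIT_023221mg had 441.4, 466.4, 358.2 and 250.0 in TT8 and 75.4 to 112.6 in ISE36 (log2 difference 2.03 ± 0.22 SE, limma adjusted p = 0.000423), and SETIT_023002mg had a log2 difference of 1.06 that came to 0.97 without TT8 replicate 4 and 0.89 without ISE36 replicate 4, both under the limit.

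Few cell wall genes were called by limma. Of 51 tested hemicellulose and pectin genes, 2 were called higher in TT8 and 2 higher in ISE36, 7.84% against 16.8% of all genes, and the median log2 difference was 0.04. By edgeR 3 were higher in TT8 and 0 higher in ISE36. DESeq2 gave 6 and 2, and 1814 and 2563 of all 24078 genes, so the low share depended on the method. At an unadjusted limma p under 0.05 there were 10 genes higher in TT8 and 9 higher in ISE36, beside 4894 and 5163 of all 24078 genes. A gene for glucomannan 4-beta-mannosyltransferase (SETIT_034919mg), which builds the mannan backbone, had 1233, 1285, 812.8 and 876.7 in TT8 and 272.3, 159.8, 183.6 and 155.6 in ISE36, 5.47-fold higher in TT8 (limma adjusted p = 0.000160). TT8 replicate 4 was within its own line here, and the second gene of this enzyme, SETIT_016912mg, had a log2 difference of 0.11 and was not called.

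Xyloglucan endotransglycosylases cut and rejoin the chains that tie cellulose together, and 12 of these genes were tested with 1 call in each direction, 16.7% against 16.8% of all genes. SETIT_007018mg had 1529, 5635, 9861 and 8553 in TT8 and 20629, 16635, 14280 and 13357 in ISE36 (log2 difference -1.62, limma adjusted p = 0.0469). SETIT_017966mg had 99.6, 214.7, 116.0 and 284.3 in TT8 and 59.2 to 83.6 in ISE36 (log2 difference 1.18, limma adjusted p = 0.0281). Both were without overlap but close to the limit: the first was lost when TT8 replicate 2 or any one ISE36 library was left out, and the second without TT8 replicate 2 or 4 or ISE36 replicate 2, 3 or 4. They belong to a multigene family, and reads shared among its members, if any, could have been split in counting. The xyloglucan 6-xylosyltransferase gene SETIT_013296mg had 283.1 to 661.8 in TT8 and 659.8 to 1144 in ISE36 (log2 difference -1.02), and was lost on leaving out TT8 replicate 1 or 4 or ISE36 replicate 2, 3 or 4. The 11 pectin genes, which build or loosen the matrix between cells, gave 0 calls by limma and by edgeR and 1 by DESeq2, with 2 higher in TT8 and 4 higher in ISE36 at an unadjusted p under 0.05. The 3 callose synthases and 3 fasciclin-like genes also gave 0 calls by limma and by edgeR, with 2 and 0 genes at an unadjusted p under 0.05, and DESeq2 called 0 and 1. The 11 wall genes of other functions gave 0 calls by limma, 1 by edgeR and 2 by DESeq2, all higher in TT8. Of these, 10 had a higher estimate in TT8, 5 at an unadjusted limma p under 0.05, their median log2 difference was 0.68, and without TT8 replicate 4 limma called 2. Leaving out single libraries moved the 2 calls towards TT8 to between 1 and 3 and the 2 towards ISE36 to between 0 and 4.

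Roots treated with AMF gave a comparison of the same lines in 8 other libraries. In these, 10.6% of 24052 genes were called higher in TT8 and 10.2% higher in ISE36. Of the genes called higher in TT8 in mock roots, 1593 could be tested again and 760 (47.7%) were called in the same direction and 18 (1.13%) in the other. Of those higher in ISE36 in mock roots, 1099 of 2435 (45.1%) were called in the same direction and 54 (2.22%) in the other. Without TT8 replicate 4 the shares called again were 37.8% of 2057 and 32.7% of 3412, and the opposite calls rose to 70 (3.40%) and 260 (7.62%). AMF-treated roots of the lines also differed in the 5 genes picked after their values were seen, with sums of 9563 to 17015 in TT8 and 296.9 to 1593 in ISE36. Over the 16 colonization-related genes the sums were 20264 to 32003 and 1262 to 3740. The part of these genes in this comparison was not tested.

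**Figure D5:**
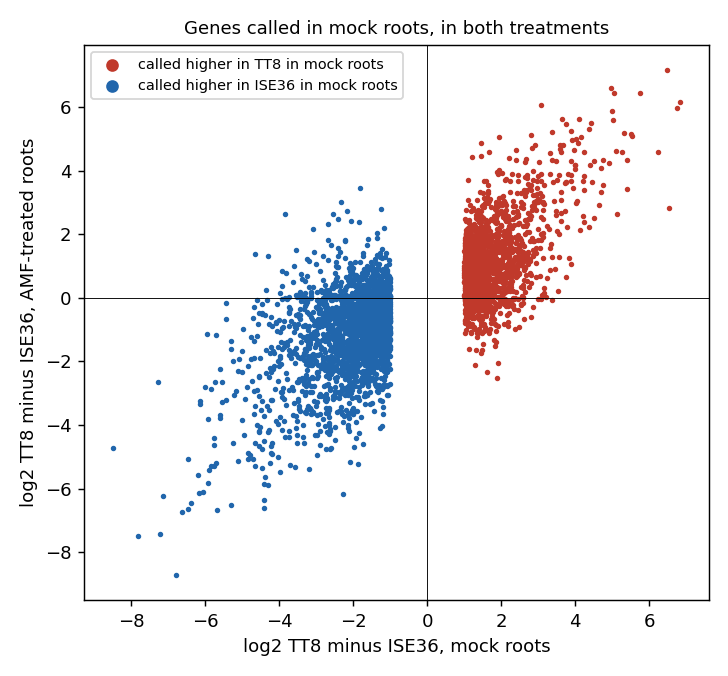
Log2 difference between the lines (TT8 minus ISE36) in AMF-treated roots (vertical axis) against that in mock roots (horizontal axis) for each gene called in mock roots. Of the genes called higher in TT8, 85.7% had a difference of the same sign in AMF-treated roots, and of those called higher in ISE36, 83.0%.

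The line difference itself changed with treatment for 21.1% of 23813 genes by the limma interaction term, for 24.9% of the genes called higher in TT8 in mock roots and for 33.3% of those called higher in ISE36. Without TT8 replicate 4 it passed for 32.8% of all 23813 genes. The mock libraries entered both the choice of these genes and the term. The heparan-alpha-glucosaminide N-acetyltransferase gene SETIT_028233mg turned over: AMF-treated TT8 had 462.3 to 826.0 and AMF-treated ISE36 175.9 to 259.5, and the line difference moved by -6.02 on the log2 scale between treatments (limma adjusted p = 1.74e-05, mock minus AMF). Exo71I, CBF1 and the chitinase SETIT_002402mg, called higher in ISE36 in mock roots, were also called higher in TT8 in AMF-treated roots. Their log2 differences there were 1.84, 2.21 and 3.03. Of the 40 conserved genes, 30 were called higher in TT8 and 2 higher in ISE36 in AMF-treated roots, against 10.6% and 10.2% of all genes. Both called PAL genes that were higher in mock TT8 were not called in AMF-treated roots, with log2 differences of 0.27 for SETIT_009509mg and 0.28 for SETIT_016478mg. The difference for ABCB2 was 4.001 in mock and 4.07 in AMF-treated roots, and that for glutamate N-acetyltransferase -1.20 and -1.16, neither with a detectable change. Of the glutamine and arginine list 5 of 20 were called higher in ISE36 and 3 higher in TT8 in AMF-treated roots, with a median log2 difference of -0.60.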

How the data were processed

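Root RNA of 3 lines, mock or AMF-treated and with 4 libraries each, had been sequenced by the authors on an Illumina instrument from KAPA mRNA libraries. Per the labels the authors used Trimmomatic 0.38, HISAT2 2.1.0, featureCounts 2.0.0 and DESeq2 1.26.0. The deposited values are a normalized signal, the gene count divided by a size factor of each library, and each table holds the genes of 1 line. Dividing by the smallest positive value of a column gave whole reads (within 0.001) for 100% of 607864 values, so 1 read was worth 0.828 to 1.18 in the mock libraries. The mock libraries held 16543884 to 21760152 counted reads. Strand setting and gene positions are not given in the sources used here. All columns were assigned to a sample by their names.

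Tables of TT8 and ISE36 were joined on gene ID, and genes with a mean of at least 5 over the 8 mock libraries were tested with limma 3.58.1 (R 4.3.3, trend) on log2(value + 1), TT8 minus ISE36, with Benjamini-Hochberg adjustment over all tested genes. A fold change on this scale understates the change of low genes. AMF-treated libraries were tested in the same way, and a change of the line difference with an interaction term over 4 groups. Alternatives were edgeR 4.0.16 and DESeq2 1.42.0 on the recovered reads, other pseudocounts, filters and scalings, array weights, a replicate block, all 16 libraries in one fit, and each library left out. The limma procedure was tested on simulated data. No pair of replicates agreed within sampling noise (lowest chi-square per gene 7.21, where 1 is sampling noise).

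The members and lists were chosen with earlier results of these data known. Lists and annotations came from the study's text, 149 genes in all; 28 further lists by product name could not be applied, since 0 gene IDs matched the reference table, and for the same reason no position, promoter or protein sequence is given. Genes named were the symbiosis genes of the study's text, up to 4 called genes per list (mean of at least 50, no overlap between lines, largest difference) and the 2 genes per direction of largest difference (mean of at least 100). The other genes named were chosen after their values were seen.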

Additional observations from a re-analysis of the deposited data

Results flagged for a closer look

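The gap rule used here takes the gap of the outermost library divided by the range of its group. Chance marks about 1 in 20 groups of 4 by it where values follow a normal distribution, which normalized counts need not do. A group with 0 in all libraries but 1 gives 1.00 by definition. PHT1;9, RAM1, RAM2, SETIT_019796mg and SETIT_032400mg were also picked after their values were seen, so their ratios are description only. In TT8 mock roots the outermost library was replicate 4 in every case. The ratio was 0.986 for PHT1;9 (SETIT_004288mg), 1.00 for RAM1 (SETIT_027708mg), 0.949 for RAM2 (SETIT_035307mg), 0.940 for RAD1 (SETIT_000959mg), 1.00 for the subtilisin inhibitor SETIT_019796mg, 1.00 for the germin-like SETIT_032400mg and 0.850 for the subtilisin inhibitor SETIT_023913mg. It was 0.949 for UTP-ammonia ligase SETIT_021485mg, 0.852 for the plastocyanin-like SETIT_020176mg and 0.925 for SETIT_015759mg. In ISE36 mock roots it was 0.856 for DMI3 (SETIT_021787mg, replicate 1 lowest) and 1.00 for SETIT_032400mg, which rests on a single read in replicate 2.

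The line difference (TT8 minus ISE36) differed between mock and AMF-treated roots by the limma interaction term for the following genes among others, with mock minus AMF on the log2 scale. It was -3.06 for STR, -3.38 for STR2, -4.40 for FatM, -2.79 for RAD1, -1.58 for DMI3, -2.10 for AMT3;1 and -4.16 for the nitrate transporter SETIT_004857mg. It was -6.02 for the heparan-alpha-glucosaminide N-acetyltransferase SETIT_028233mg, -3.87 and -5.35 for the class III chitinases SETIT_033231mg and SETIT_002402mg, -4.29 for the subtilisin inhibitor SETIT_023913mg, -2.17 for the xyloglucan endotransglycosylase SETIT_007018mg and -3.78 for SETIT_015759mg. Positive values were 1.63 for the glutamine synthetase SETIT_036352mg, 1.58 and 1.33 for the PAL genes SETIT_016478mg and SETIT_009509mg, 1.04 for the LEA gene SETIT_023221mg and 1.02 for the glucomannan 4-beta-mannosyltransferase SETIT_034919mg. Other genes of the text that passed included Exo71I (-3.45), CBF1 (-3.39), proline oxidase (-3.37) and SETIT_019548mg (-3.03). Further ones were SETIT_021498mg (-1.13), ornithine aminotransferase (1.24) and the oligopeptide transporter SETIT_026160mg (1.27). PHT1;9 had -3.02 and did not pass (limma adjusted p = 0.107), with TT8 replicate 4 far from the other TT8 mock libraries.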

How the results depend on the processing

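The counts of 1600 genes higher in TT8 and 2438 higher in ISE36 stayed within 1.5 times under every alternative but array weights (2502 and 3773) and the loss of ISE36 replicate 3; with each library left out in turn they ran from 1180 to 2077 and from 1623 to 3415. Array weights also gave 15 glutamine list genes higher in ISE36 and 1 higher in TT8, 2 aromatic genes higher in ISE36, and 11 conserved and 7 wall genes higher in TT8. DESeq2 gave 1 glutamine list gene and 6 wall genes higher in TT8, and the fit of 16 libraries 4 wall genes. Wall genes higher in ISE36 numbered 1 with equal totals, 0 with quantile normalization and 0 by edgeR, and PAL genes higher in ISE36 numbered 0 with equal totals. Leaving out single libraries gave 4 to 15 glutamine list genes higher in ISE36 and 0 to 1 higher in TT8, 0 to 3 aromatic genes, 2 to 4 PAL genes higher in TT8 and 0 to 1 higher in ISE36, 5 to 9 and 5 to 8 conserved genes, and 1 to 3 and 0 to 4 wall genes. Without TT8 replicate 4, chosen after seeing the data, 5266 and 5673 genes did not overlap, a count that leaving out a library cannot lower. The interaction term then passed for 548 genes higher in TT8 and 1252 higher in ISE36, against 397 and 812 with all libraries. Over all 23813 genes its share rose from 21.1% to 32.8%. The cause of these shifts was not tested. Calls shared with AMF-treated roots ran from 720 to 782 and from 1036 to 1155 as single libraries were left out.

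Same-numbered mock replicates deviated together weakly or not at all (correlations 0.18, 0.07, -0.16 and 0.28). Only the replicates numbered 4 were each other's closest match between the lines. Whether the numbers mark shared handling was not tested, and a replicate block gave 1631 genes higher in TT8 and 2609 higher in ISE36. Among 43 named or called list genes, 34 were called, and 14 of these lost the call under at least 1 alternative, in 79 values in all. The 9 uncalled genes among the 43, all symbiosis genes of the study's text, gained 0 calls, and 0 values of called genes changed direction. Other uncalled list genes outside the 43 did gain a call without TT8 replicate 4. Among them were SETIT_022118mg (log2 difference -1.79), SETIT_017628mg (-1.06), argininosuccinate synthase (-1.04) and the oligopeptide transporter SETIT_026160mg (1.18). Depth limits genes under the mean of 5, of which 258 were not tested.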
